A study of Mus musculus with 12 samples.

Results

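Collagen genes other than Col17a1 were taken as every probe whose platform gene symbol is Col, a number, the letter a and a number. The rule gave 88 of the 45281 probes on the array and 40 genes, of which 11 encode fibrillar chains, 8 encode chains of the basement membrane and 21 encode other types. A gene was tested where a probe of it stood above background on at least 4 of the 12 arrays, and the brightest such probe stood for the gene. That left 32 collagens among 11274 genes tested, 9 of them fibrillar, 7 of the basement membrane and 16 of other types.

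Collagens are secreted or membrane-bound proteins whose chains wind together into a stiff helix. Fibrillar types assemble into the banded fibrils that carry tension in connective tissue, and type IV chains form the sheet-like network of basement membranes under epithelia and around vessels and muscle. The remaining types coat fibrils, anchor them to basement membranes, form beaded or lattice networks, or span the cell membrane. In reproductive tract organs they are made mainly by the mesenchyme around the epithelium, and also by smooth muscle, vessels and epithelium.

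The series addresses the effect of losing Trp63, the gene of the epithelial transcription factor p63, on the developing vagina. Total RNA of female mice at postnatal day 3, of a mixed background (C57BL/6, S129/5 and CD-1), was hybridised to 12 Illumina bead arrays, each array carrying a pool of 3 mice, with 4 pools per group. The cHet uterus and cHet vagina came from animals labelled Trp63 flox/wt ; Pax2-cre, so that 1 Trp63 copy was floxed and 1 was not, and the cKO vagina came from animals labelled Trp63 flox/floxt ; Pax2-cre. Pax2-cre acts in cells that express or have expressed Pax2 and was carried by all 3 groups, the controls included; animals with no floxed copy, animals without Cre and a cKO uterus were not analysed here. Replicates are such pools, and p-values measure the spread between pools of unstated litters. RNA was measured in whole organs, so fewer cells of a type and less RNA per cell cannot be told apart.

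Arrays of one group correlated at 0.972 to 0.991 across genes, and between 40 and 51 of the 88 collagen probes were above background on an array. Levels are given on a log2 scale of background-corrected, normalized intensity with 16 added, so that a probe without signal sits near 4. Pool values are listed for replicates 1 to 4 in that order throughout. Trp63 stood at log2 4.55, 4.53, 4.61 and 4.76 in cHet uterus, 9.75, 9.57, 9.36 and 9.71 in cHet vagina, and 9.07, 9.73, 9.43 and 9.91 in cKO vagina. Its level in cKO and cHet vagina overlapped (difference -0.06, SE 0.17, adjusted p = 0.979), and no source used here places its probe inside or outside the floxed part, so that level checks neither the deletion nor the labels. Summed skeletal muscle markers were highest in cKO vagina replicate 3, at 1830 against 113 to 842 in the other 11 pools, and summed red blood cell markers were highest there too, at 30000 against 7710 to 20800. Without that pool 0 collagens were called between cKO and cHet vagina, as with it. Several collagens differed between replicates 1 and 2 and replicates 3 and 4, so for the members where this was marked the differences within each pair of numbers are given beside the pooled ones.

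A gene was called where its adjusted p was under 0.05. Between cHet vagina and cHet uterus 11 of the 32 tested collagens were called, or 34.4%, against 18.4% of all genes tested. At an unadjusted p under 0.05 there were 19, against 28.7% of all genes, and for 11 the pools of the organs did not overlap, against 21.5%. Of the 11 called, 3 were higher in the vagina, where the share over all genes was 9.35%, and 8 were lower, where it was 9.06%. The higher members were Col23a1, Col14a1 and Col15a1, and the lower members were Col8a2, Col9a2, Col26a1, Col6a5, Col6a4, Col4a5, Col27a1 and Col22a1. The median difference over the 32 collagens was -0.17 on the log2 scale, beside -0.02 over all genes. Without normalization beyond the authors' scaling, the split was 4 higher and 5 lower. With the replicate number as a block, 7 were higher and 9 lower, while Col1a1, Col1a2, Col2a1, Col24a1 and Col16a1 joined the called members.

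Some members passed the filter on dim probes only through the organ in which they were high, so the counts over tested members lean towards difference. Col6a5 was above background in 4 of 4 uterine pools and in 0 of the 8 vaginal pools. Among the 24 collagens above background on all 12 arrays, 3 were called higher and 5 lower in cHet vagina, while 17.7% of all genes so filtered were called.

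Between cKO and cHet vagina 0 of the 32 collagens were called by limma, and 43 of 11274 genes were, or 0.381%, with 0.0532% of all genes higher and 0.328% lower in cKO vagina. At an unadjusted p under 0.05 there was 1 collagen, Col4a6, against 7.07% of all genes. The largest differences were 0.49 for Col5a2 and -0.40 for Col7a1, with a median over the collagens of 0.06. The pools of the 2 genotypes overlapped for all 32 collagens, whereas they did not for 4.34% of all genes. In 28 of 32 the 95% interval of the difference lay within 1 log2 unit of 0. The exceptions were Col1a1, Col1a2, Col5a2 and Col7a1, and the outermost bounds were 1.18 for Col5a2 and -1.09 for Col7a1.

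**Figure D1:**
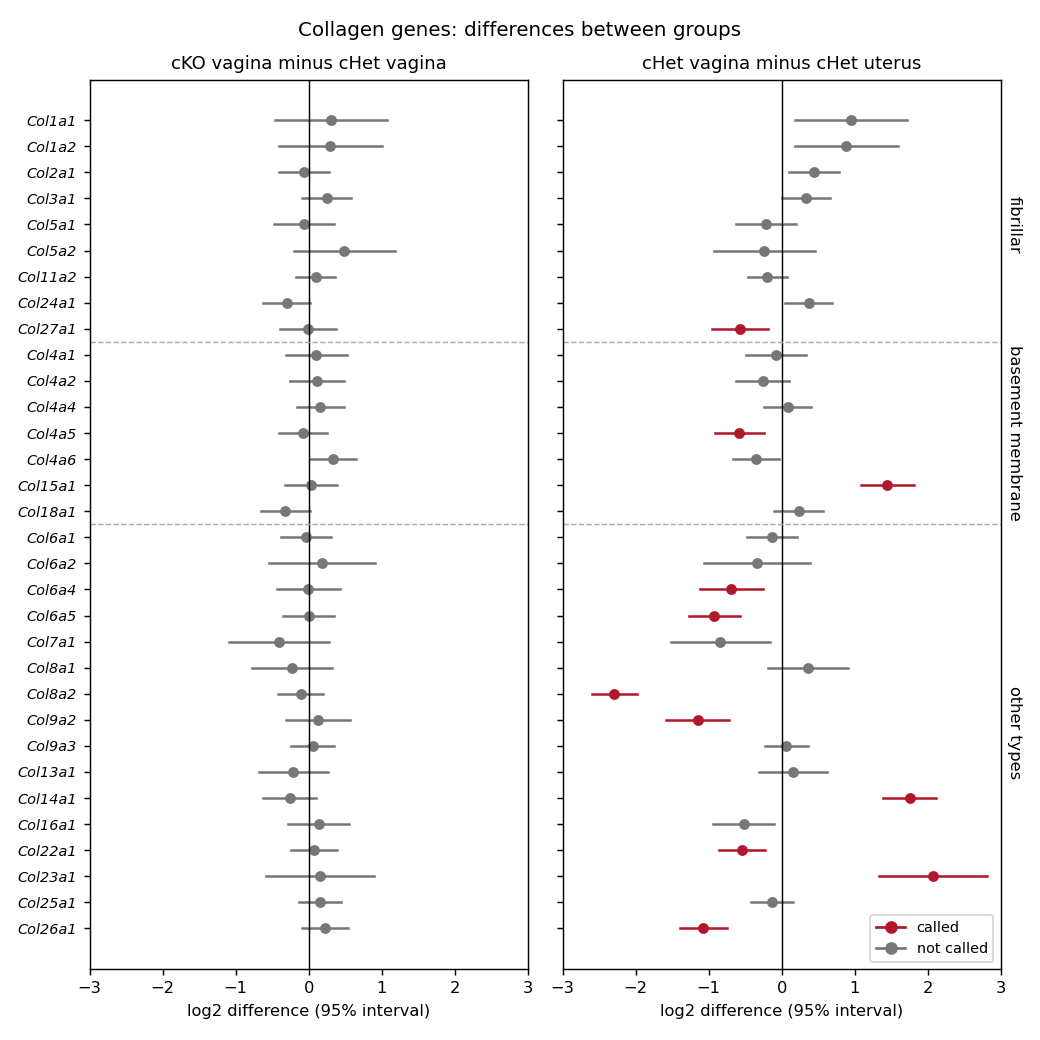
Difference on the log2 scale for each of the 32 tested collagens (rows, grouped as fibrillar, basement membrane and other types), with its 95% interval, for cKO minus cHet vagina on the left and cHet vagina minus cHet uterus on the right. Points in red were called: none on the left, and 11 on the right, from -2.29 for Col8a2 to 2.08 for Col23a1.

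Between cKO vagina and cHet uterus, which differ in genotype and organ together, 15 collagens were called, 6 higher and 9 lower in the vagina. Over all genes 18.2% were called, 8.83% higher and 9.35% lower. At an unadjusted p under 0.05 there were 16 collagens, against 28.8% of all genes, and for 12 the groups did not overlap, against 21.5%. This comparison shares its pools with the other two and is no separate evidence. The 15 held all 11 members called between cHet vagina and cHet uterus, each in the same direction, and in addition Col1a1, Col1a2, Col3a1 and Col7a1.

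**Figure D2:**
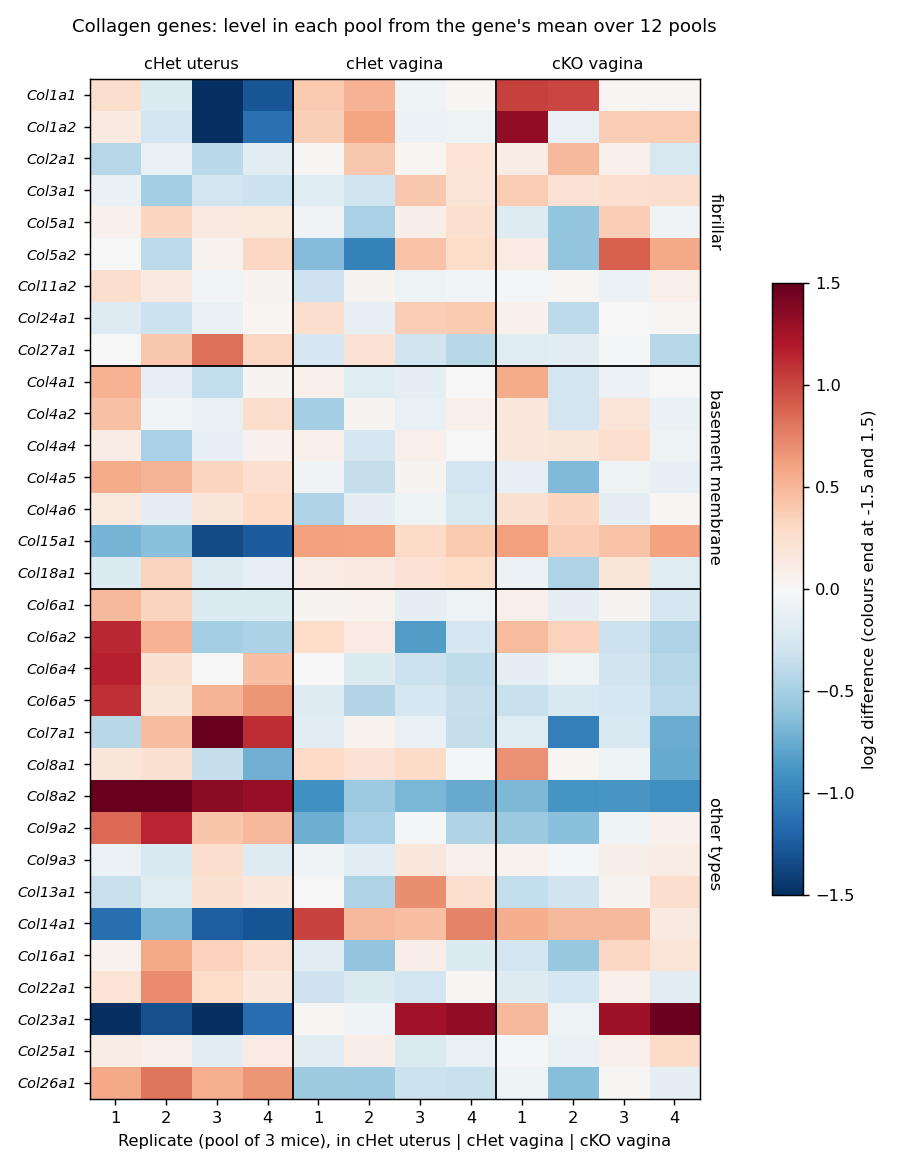
Level of each tested collagen (rows) in each of the 12 pools (columns, replicates 1 to 4 of each group) as the log2 difference from the gene's mean over all pools, red above it and blue below. The rows of Col8a2, Col14a1, Col15a1 and Col23a1 differ most in colour between uterus and vagina, while no row separates the 4 cKO from the 4 cHet vaginal pools.

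Among the fibrillar chains, 1 of 9 tested was called between cHet vagina and cHet uterus, and it was lower, a share of 11.1% against 18.4% of all genes. Between cKO vagina and cHet uterus 4 were called, 3 higher and 1 lower, or 44.4% against 18.2% of all genes, and 0 were called between the genotypes. Their median difference from cHet uterus was 0.34 in cHet vagina and 0.25 in cKO vagina. Col27a1, which encodes a minor fibrillar chain known from cartilage, stood at log2 5.01, 5.41, 5.83 and 5.31 in cHet uterus, 4.75, 5.22, 4.71 and 4.58 in cHet vagina, and 4.82, 4.83, 4.98 and 4.58 in cKO vagina. Replicate 2 of cHet vagina overlapped the uterine range, and the cKO pools all lay under it. The gene was 1.49-fold lower in cHet vagina than in cHet uterus (difference -0.58, SE 0.18, adjusted p = 0.0348), and 1.50-fold lower in cKO vagina (-0.59, adjusted p = 0.0316). For cHet vagina, replicates 1 and 2 gave -0.23 and replicates 3 and 4 gave -0.92. A second probe of Col27a1, near background and above it on 6 of 12 arrays, differed by -0.18 (adjusted p = 0.417 over probes). The call on the first probe was lost in 13 of 26 alternatives.

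Col1a1 and Col1a2, which encode both chains of type I collagen, the main protein of tensile fibrils, varied widely between pools. Col1a1 stood at log2 10.49, 10.02, 8.50 and 8.94 in cHet uterus, 10.61, 10.74, 10.16 and 10.24 in cHet vagina, and 11.25, 11.22, 10.25 and 10.24 in cKO vagina. Replicates 1 and 2 were above replicates 3 and 4 in each of the 3 groups, and uterine replicate 1 lay inside the range of the vaginal pools. The difference between cHet vagina and cHet uterus was 0.95 (SE 0.36, adjusted p = 0.0845). Replicates 1 and 2 gave 0.42 and replicates 3 and 4 gave 1.48. With the replicate number as a block the same difference was called for Col1a1 (adjusted p = 0.00228), and without cHet uterus replicate 1 it was 1.29 (adjusted p = 0.0138). Without cHet uterus replicate 3 it was 0.62 (adjusted p = 0.268 for Col1a1). In cKO vagina Col1a1 was 2.39-fold higher than in cHet uterus (1.25, SE 0.36, adjusted p = 0.0226). That call on Col1a1 was lost in 7 of 26 alternatives, among them without cHet uterus replicate 3 (0.92, adjusted p = 0.0797), cHet uterus replicate 4 (adjusted p = 0.0756), cKO vagina replicate 1 (adjusted p = 0.0768) or cKO vagina replicate 2 (adjusted p = 0.0709).

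Col1a2 followed at log2 8.46, 8.05, 6.83 and 7.20 in cHet uterus, 8.68, 8.92, 8.23 and 8.25 in cHet vagina, and 9.65, 8.21, 8.69 and 8.70 in cKO vagina. Here too uterine replicates 3 and 4 were lowest and uterine replicate 1 overlapped the vaginal pools. Its difference from cHet uterus was 0.89 in cHet vagina (SE 0.33, adjusted p = 0.0806), or 0.0154 as an adjusted p for Col1a2 with the replicate block. Replicates 1 and 2 gave 0.54 and replicates 3 and 4 gave 1.23. Without cHet uterus replicate 1 the Col1a2 difference was called (1.16, adjusted p = 0.0201). In cKO vagina against cHet uterus it was 1.18 (adjusted p = 0.0198). This call on Col1a2 was lost in 6 of 26 alternatives, among them without cHet uterus replicate 3 (adjusted p = 0.0731), cHet uterus replicate 4 (adjusted p = 0.0656) or cKO vagina replicate 1 (0.90, adjusted p = 0.0741). Between cKO and cHet vagina, Col1a1 differed by 0.30 (95% interval -0.47 to 1.07) and Col1a2 by 0.29 (-0.41 to 1.001).

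Col3a1, the gene of type III collagen, which co-assembles with type I in soft tissue, stood at log2 11.44, 11.03, 11.27 and 11.22 in cHet uterus, 11.37, 11.26, 11.95 and 11.74 in cHet vagina, and 11.92, 11.76, 11.80 and 11.81 in cKO vagina. All cKO pools lay above all uterine pools, while the cHet vaginal pools spanned both. Of the 3 differences of Col3a1, only that between cKO vagina and cHet uterus was called, at 1.50-fold (0.58, SE 0.16, adjusted p = 0.0148). A second probe of Col3a1 gave 0.06 there, with an adjusted p of 0.951 over probes. For cHet vagina against cHet uterus the gene differed by 0.34 (adjusted p = 0.171), where replicates 1 and 2 gave 0.07 and replicates 3 and 4 gave 0.60.

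**Figure D3:**
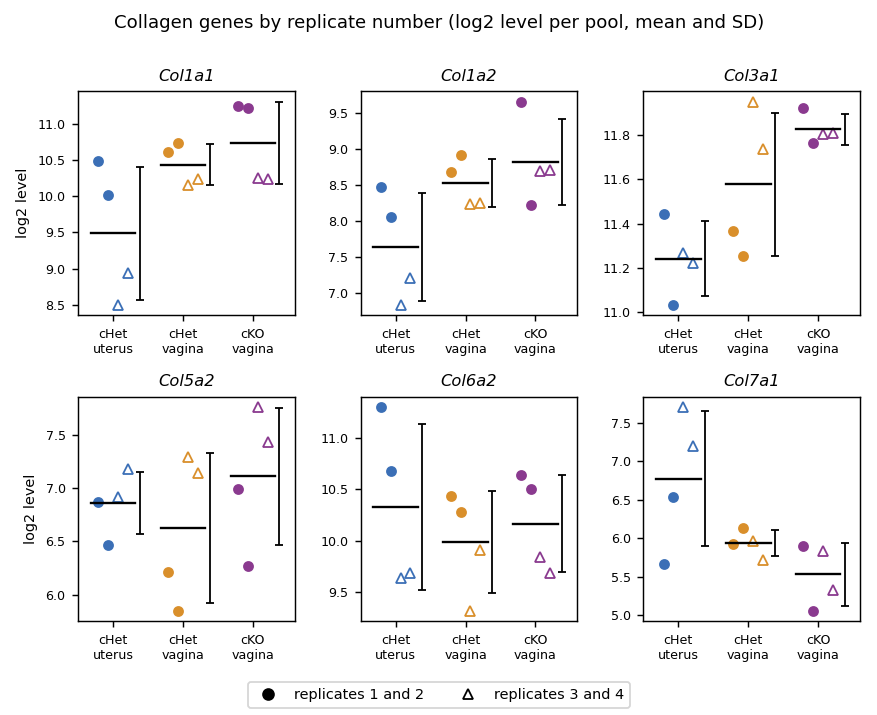
Log2 level (vertical axes, a scale of its own per gene) of 6 collagens in each pool by group, with filled circles for replicates 1 and 2, open triangles for replicates 3 and 4, lines for the mean and bars for the SD of 4 pools. In Col1a1 and Col6a2 the circles lie above the triangles in all 3 groups, and in Col5a2 the triangles lie above the circles in all 3; the genes were chosen after their values were seen.

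Col2a1, the type II chain of cartilage fibrils, was close to background: log2 4.13, 4.44, 4.15 and 4.40 in cHet uterus, 4.57, 4.95, 4.59 and 4.76 in cHet vagina, and 4.66, 5.04, 4.62 and 4.31 in cKO vagina. It was not well above background in any uterine pool, and passed in all 4 cHet vaginal pools and in 3 of 4 cKO pools. The cHet vaginal pools all lay above the uterine ones. Their mean was at least 1.17-fold above the uterine mean, but the difference of 0.44 was not called (adjusted p = 0.0710). With the replicate block it was called (adjusted p = 0.0322 for Col2a1). A second Col2a1 probe, above background in 4 of 4 pools of each vaginal group and in 0 uterine pools, gave 0.58 without the block (adjusted p = 0.0225 over probes). Both probes passed the filter on dim probes only through the vaginal pools, so these calls are no separate support. Of the cartilage markers, Acan, Cnmd, Matn1, Matn3, Snorc and Ucma were above background on 0 arrays, Comp and Sox6 on 1 and Epyc on 3. Of the 6 tested, Sox9 (1.26) and Chad (1.09) were called higher in cHet vagina than in cHet uterus. Chad averaged log2 4.26 in cHet uterus, near the level without signal. Hapln1 (-0.78), Mia (-0.74) and Sox5 (-0.95) were called lower. Over all genes 9.35% were called higher and 9.06% lower. The 6 summed to 398 to 496 in cHet uterus and 437 to 495 in cHet vagina. The part of cartilage cells in the Col2a1 level was not tested.

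The type V chains limit the diameter of fibrils, and neither was called in any comparison. Col5a1 differed by -0.22 between cHet vagina and cHet uterus and by -0.07 between the genotypes. Col5a2, which lies next to Col3a1 on chromosome 1 in the GRCm38.p6 annotation, differed by -0.24 and 0.49, and its 4 kept probes ranged from -0.30 to 0.49 between the genotypes. Col24a1, a minor fibrillar chain, was 0.37 higher in cHet vagina than in cHet uterus (adjusted p = 0.117). With the replicate block this was called for Col24a1 (adjusted p = 0.0377). A second Col24a1 probe, above background on all 12 arrays, gave 0.12 without the block (adjusted p = 0.745 over probes). Col11a2, a type XI chain, differed by -0.20 there (adjusted p = 0.346).

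Of the 7 basement membrane chains tested, 1 was called higher and 1 lower in cHet vagina than in cHet uterus, and the same 2 genes were called in cKO vagina, each time 28.6% against 18.4% and 18.2% of all genes. Col15a1 encodes type XV collagen, which lies where basement membranes meet the surrounding stroma. It stood at log2 6.05, 6.12, 5.41 and 5.50 in cHet uterus, 7.36, 7.35, 7.03 and 7.14 in cHet vagina, and 7.36, 7.11, 7.17 and 7.35 in cKO vagina. Every vaginal pool was above every uterine pool. The gene was 2.73-fold higher in cHet vagina (1.45, SE 0.17, adjusted p = 9.78e-06) and 2.79-fold higher in cKO vagina (1.48, adjusted p = 9.15e-06), and the genotypes differed by 0.03 (95% interval -0.33 to 0.39).

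Col4a5, a chain of the type IV network that pairs with the chains of Col4a3 and Col4a4 or of Col4a6, stood at log2 9.22, 9.17, 8.98 and 8.91 in cHet uterus, 8.60, 8.30, 8.70 and 8.37 in cHet vagina, and 8.54, 8.001, 8.59 and 8.54 in cKO vagina. The uterine pools were all above the vaginal ones. It was 1.49-fold lower in cHet vagina (-0.58, SE 0.16, adjusted p = 0.0150), with -0.58 from its second probe also, and 1.57-fold lower in cKO vagina (-0.65, adjusted p = 0.00671). Col4a6, its neighbour on the X chromosome, differed by -0.35 between cHet vagina and cHet uterus (adjusted p = 0.120). The same gene had the only unadjusted p under 0.05 among collagens between the genotypes, at 0.0385 with a difference of 0.33 in cKO vagina (SE 0.15, adjusted p = 0.661). Its second probe gave 0.37, and replicates 1 and 2 gave 0.57 against 0.09 for replicates 3 and 4.

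Col4a1 and Col4a2, neighbours on chromosome 8 that encode the chains found in nearly all basement membranes, were not called in any comparison. Col4a1 stood at log2 10.90, 10.26, 10.01 and 10.41 in cHet uterus, 10.46, 10.20, 10.23 and 10.37 in cHet vagina, and 10.93, 10.10, 10.28 and 10.37 in cKO vagina. The 3 groups overlapped throughout, with differences of -0.08 between cHet vagina and cHet uterus (95% interval -0.49 to 0.34) and 0.10 between the genotypes (-0.31 to 0.52). Col4a2 differed by -0.26 and 0.12. Col4a4 differed by 0.08 and 0.16, and Col18a1, whose type XVIII protein yields endostatin, by 0.23 and -0.32, none of them called.

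The other types held 8 of the 11 called members, 2 higher and 6 lower of 16 tested, or 50% of them against 18.4% of all genes. The promoter sequences of the members that moved most between the organs are shown here so that what lies ahead of these genes can be read beside their values. They are the 250 bases before the transcription start in RefSeq's GRCm38.p6 tables, plus strand, 5′ to 3′, for the 2 members with the highest and the 2 with the lowest fitted difference in cHet vagina among those the table holds. Col8a2 is at chr4:126286544-126286793, Col9a2 at chr4:121039316-121039565, Col15a1 at chr4:47207762-47208011 and Col23a1 at chr11:51289670-51289919. Capitals mark the GC box GGGCGG on either strand.
Col8a2: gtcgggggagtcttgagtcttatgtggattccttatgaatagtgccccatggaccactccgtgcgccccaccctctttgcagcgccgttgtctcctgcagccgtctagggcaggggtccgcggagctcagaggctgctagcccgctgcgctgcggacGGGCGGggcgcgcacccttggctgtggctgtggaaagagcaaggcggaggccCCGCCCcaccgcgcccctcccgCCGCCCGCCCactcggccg
Col9a2: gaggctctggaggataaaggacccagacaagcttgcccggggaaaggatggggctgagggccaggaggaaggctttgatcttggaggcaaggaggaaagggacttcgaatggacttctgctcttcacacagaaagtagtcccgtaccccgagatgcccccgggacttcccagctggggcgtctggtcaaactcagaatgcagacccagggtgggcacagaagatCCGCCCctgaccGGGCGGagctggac
Col15a1: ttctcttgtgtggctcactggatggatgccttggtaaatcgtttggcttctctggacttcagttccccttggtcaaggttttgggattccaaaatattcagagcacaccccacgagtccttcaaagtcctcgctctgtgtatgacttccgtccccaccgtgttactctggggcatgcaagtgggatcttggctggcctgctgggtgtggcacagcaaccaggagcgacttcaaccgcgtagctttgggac
Col23a1: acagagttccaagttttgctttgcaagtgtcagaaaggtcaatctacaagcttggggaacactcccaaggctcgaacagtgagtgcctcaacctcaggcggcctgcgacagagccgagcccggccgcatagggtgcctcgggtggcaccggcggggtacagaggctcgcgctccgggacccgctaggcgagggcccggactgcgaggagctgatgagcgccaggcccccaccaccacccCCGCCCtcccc

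The Col8a2 promoter held 4 GC boxes, of which the last 2 overlap, Col9a2 held 2, Col23a1 held 1 and Col15a1 held 0. The promoter table held 35 promoters for 32 of the 40 collagens, and a GC box was found in 62.9% of them, against 32.7% of the 32851 promoters in the table. Of the 8 promoters of collagens called between cHet vagina and cHet uterus, 87.5% held one. The letters CCAAT were found in 34.3% of collagen promoters and 33.8% of all, and TATAAA in 11.4% and 12.4%, both strands searched. These are matches of letters and not known sites, and the collagens that rose and those that fell both include promoters with a GC box.

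Col8a2 had the lowest difference among collagens measured in both organs. It encodes a chain of type VIII collagen, which forms lattices under endothelia. It stood at log2 10.43, 10.42, 9.99 and 9.94 in cHet uterus, 7.72, 8.09, 7.95 and 7.87 in cHet vagina, and 7.97, 7.75, 7.76 and 7.71 in cKO vagina, with no overlap between the organs. That is 4.89-fold lower in cHet vagina (-2.29, SE 0.15, adjusted p = 1.61e-08) and 5.28-fold lower in cKO vagina (-2.40, adjusted p = 9.83e-09). A second probe of Col8a2, above background on 11 of 12 arrays, gave -1.62 for cHet vagina (adjusted p = 1.56e-06 over probes). The third kept probe was above background in the uterine pools only, and no difference is given for it. Col8a1, the partner chain, differed by 0.37 and was not called (adjusted p = 0.396).

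Of 9 endothelial markers tested, 7 were called lower in cHet vagina than in cHet uterus and 0 higher. Over all genes tested, 9.06% were called lower and 9.35% higher, the shares to set beside each list here. Endothelial markers summed to 2730 to 3050 in cHet uterus and 1150 to 1560 in cHet vagina. Kdr, one of the list's defining genes, was above background on 0 arrays. Mesothelial markers, of the cells that cover the uterus, were also lower for 3 of 4, led by Upk3b at -3.70 and Msln at -1.93, with sums of 1130 to 1930 in cHet uterus and 690 to 1150 in cHet vagina; the fourth, Krt19, is an epithelial marker as well and was higher. Epithelial markers were called higher for 13 of 14, with sums of 4630 to 5410 in cHet uterus and 15100 to 25900 in cHet vagina. Of 8 smooth muscle markers, Actg2 (3.63) and Myh11 (2.09) were called higher and Des (-1.36) lower, with sums of 19800 to 25300 in cHet uterus and 20400 to 32700 in cHet vagina. Of 7 leukocyte markers 3 were called lower, Lyz2 (-0.86), Csf1r (-0.68) and Cd52 (-0.51), with sums of 529 to 935 and 392 to 526, and Ptprc was above background on 0 arrays. The part of any of these cell types in the collagen differences was not tested.

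Among members measured in both organs, Col9a2 and Col26a1 had the next lowest differences. Col9a2 encodes a chain of type IX collagen, which decorates the fibrils of cartilage, and stood at log2 8.02, 8.31, 7.58 and 7.65 in cHet uterus, 6.43, 6.68, 7.13 and 6.71 in cHet vagina, and 6.61, 6.54, 7.09 and 7.22 in cKO vagina. All uterine pools were above all vaginal pools. It was 2.22-fold lower in cHet vagina (-1.15, SE 0.20, adjusted p = 0.000621) and 2.03-fold lower in cKO vagina (-1.02, adjusted p = 0.00179). For cHet vagina, replicates 1 and 2 gave -1.61 and replicates 3 and 4 gave -0.69. Col9a3, another type IX chain, differed by 0.06 and was above background on 5 of 12 arrays, and Col9a1 was not tested.

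Col26a1, the gene of type XXVI collagen, first described in the testis and ovary of the mouse, stood at log2 9.84, 10.08, 9.81 and 9.94 in cHet uterus, 8.74, 8.73, 8.95 and 8.95 in cHet vagina, and 9.20, 8.64, 9.30 and 9.14 in cKO vagina. The uterine pools lay close together and above every vaginal pool. The gene was 2.10-fold lower in cHet vagina (-1.07, SE 0.15, adjusted p = 6.63e-05) and 1.80-fold lower in cKO vagina (-0.85, adjusted p = 0.000641). A second Col26a1 probe was near background, above it on 6 of 12 arrays at a mean log2 level of 4.57 in cHet uterus, and could not show a fall of this size.

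Col6a4 and Col6a5 lie side by side on chromosome 9 and encode further chains of the type VI family, whose beaded filaments surround cells. Col6a5 stood at log2 5.60, 4.69, 5.02 and 5.17 in cHet uterus, 4.32, 4.07, 4.25 and 4.17 in cHet vagina, and 4.17, 4.28, 4.24 and 4.11 in cKO vagina. It was not well above background in any vaginal pool, so the gene was at least 1.58-fold lower in cHet vagina and at least 1.64-fold lower in cKO vagina. Col6a5 passed the filter on dim probes only through its uterine pools. Its adjusted p values of 0.000637 and 0.000680 are therefore no separate support for a difference. Col6a4 stood at log2 5.74, 4.79, 4.57 and 5.02 in cHet uterus, 4.57, 4.37, 4.24 and 4.18 in cHet vagina, and 4.43, 4.49, 4.27 and 4.14 in cKO vagina. Its uterine range starts just above the top cHet vaginal pool, and 1 of 4 cHet and 2 of 4 cKO vaginal pools were above background.

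Col6a4 differed by -0.69 in cHet vagina (SE 0.20, adjusted p = 0.0244), but by -0.45 without cHet uterus replicate 1 (adjusted p = 0.0596). The type VI chains Col6a1 and Col6a2 were not called: Col6a1 differed by -0.13 between the organs (95% interval -0.48 to 0.22) and Col6a2 by -0.34 (-1.07 to 0.39). A second Col6a2 probe, dimmer but above background on all 12 arrays, gave -0.40 in cHet vagina (adjusted p = 0.0551 over probes). In cKO vagina against cHet uterus that probe gave -0.44 (adjusted p = 0.0377 over probes). Col6a6, the gene beside Col6a5, was above background on 0 arrays.

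Col22a1, whose type XXII collagen is known from the junctions of muscle with tendon, was close to background. It stood at log2 4.89, 5.40, 4.96 and 4.85 in cHet uterus, 4.37, 4.46, 4.40 and 4.70 in cHet vagina, and 4.49, 4.42, 4.77 and 4.52 in cKO vagina. The organs did not overlap, and the gap between the lowest uterine and the highest vaginal pool was narrow. The gene was 1.45-fold lower in cHet vagina (-0.54, SE 0.15, adjusted p = 0.0168), and without cHet uterus replicate 2 the Col22a1 difference was -0.41 (adjusted p = 0.0554). Of 10 skeletal muscle markers tested, 0 were called between these organs, at a lowest adjusted p of 0.0653, and 2 had an unadjusted p under 0.05, where 28.7% of all genes did. Of 5 bone and tendon markers tested, Scx, a gene of the tendon lineage, was called higher (1.38, adjusted p = 0.000864) and Sp7, a gene of bone-forming cells, lower (-1.23, adjusted p = 0.000408), with sums of 158 to 259 in cHet uterus and 336 to 521 in cHet vagina. Tnmd, which marks tendon, was above background on 1 array, and the part of these cells in the Col22a1 difference was not tested.

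Col23a1 and Col14a1 had the highest differences of cHet vagina from cHet uterus among the tested collagens. Col23a1 encodes a collagen that spans the cell membrane, and stood at log2 5.05, 5.42, 5.17 and 5.60 in cHet uterus, 6.77, 6.70, 8.01 and 8.08 in cHet vagina, and 7.24, 6.67, 8.02 and 8.23 in cKO vagina. Every vaginal pool was above every uterine pool, and in both genotypes replicates 3 and 4 were above replicates 1 and 2. It was 4.22-fold higher in cHet vagina (2.08, SE 0.35, adjusted p = 0.000358), of which replicates 1 and 2 showed 1.50 and replicates 3 and 4 showed 2.66. It was 4.69-fold higher in cKO vagina (2.23, adjusted p = 0.000210). A second probe gave 2.52 and 2.48.

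Col14a1, whose type XIV collagen binds the surface of type I fibrils, stood at log2 6.58, 7.04, 6.47 and 6.41 in cHet uterus, 8.73, 8.19, 8.16 and 8.45 in cHet vagina, and 8.25, 8.19, 8.20 and 7.85 in cKO vagina. The organs were well apart, and the genotypes overlapped. It was 3.38-fold higher in cHet vagina (1.76, SE 0.17, adjusted p = 1.53e-06) and 2.82-fold higher in cKO vagina (1.50, adjusted p = 9.39e-06). A second probe of Col14a1 gave 1.17 and 1.07. Between cKO and cHet vagina Col14a1 differed by -0.26 (95% interval -0.62 to 0.10, adjusted p = 0.848).

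**Figure D4:**
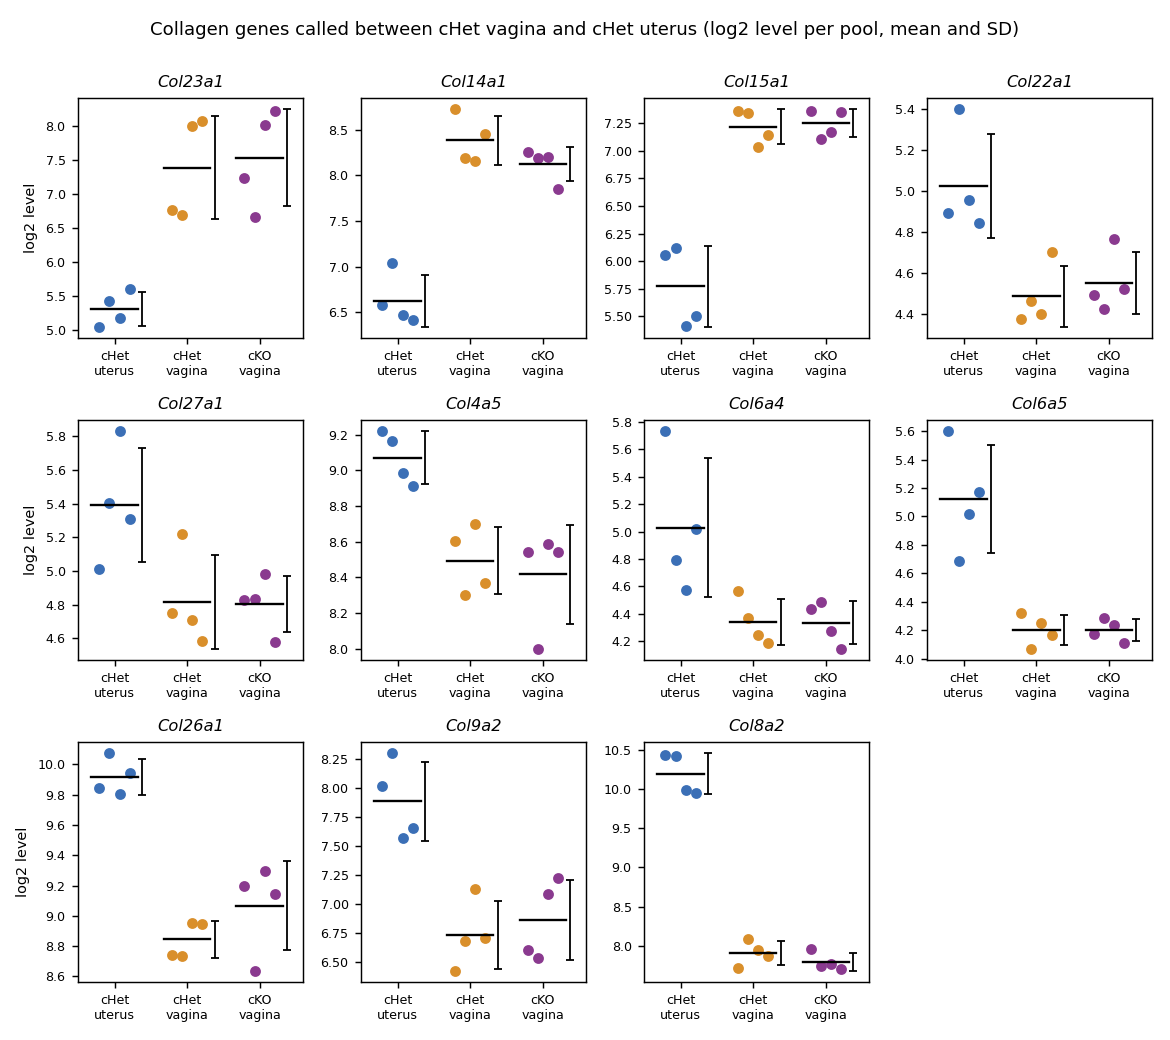
Log2 level per pool (points; a scale of its own per gene) of the 11 collagens called between cHet vagina and cHet uterus, by group, with lines for the mean and bars for the SD of 4 pools. Apart from Col27a1, the uterine points do not overlap the cHet vaginal points, and in every panel the cKO vaginal points overlap the cHet vaginal ones.

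Col7a1 encodes the anchoring fibrils that tie the basement membrane of stratified epithelia to the stroma. It stood at log2 5.66, 6.54, 7.70 and 7.19 in cHet uterus, 5.92, 6.13, 5.97 and 5.72 in cHet vagina, and 5.90, 5.06, 5.84 and 5.33 in cKO vagina. Uterine replicate 1 lay under all 4 cHet vaginal pools, while uterine replicates 2, 3 and 4 lay above them. The difference between cHet vagina and cHet uterus was -0.84 (SE 0.32, adjusted p = 0.0878). With replicates 1 and 2 against replicates 3 and 4 as a block, Col7a1 was called. Replicates 1 and 2 gave -0.07 and replicates 3 and 4 gave -1.60, and without cHet uterus replicate 1 the difference was -1.21 (adjusted p = 0.00319 for Col7a1). Without cHet uterus replicate 3 it was -0.53 (adjusted p = 0.279 for Col7a1). Between cKO vagina and cHet uterus it was 2.36-fold lower (-1.24, SE 0.32, adjusted p = 0.0117), and between the genotypes it differed by -0.40 (95% interval -1.09 to 0.28).

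The uncalled members of other types were Col16a1, Col13a1, Col25a1, Col8a1, Col9a3, Col6a1, Col6a2 and, between cHet vagina and cHet uterus, Col7a1. Col16a1, which associates with fibrils, differed by -0.52 there (adjusted p = 0.0859) and was called with the replicate block (adjusted p = 0.0471 for Col16a1). The membrane-spanning Col13a1 and Col25a1 differed by 0.16 and -0.14, while Col23a1 of the same kind rose. Untested collagens were Col11a1, above background on at most 3 arrays with any probe, Col5a3 on 2, Col19a1, Col28a1 and Col9a1 on 1 each, and Col10a1, Col4a3 and Col6a6 on 0.

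Spread between pools of a group was uneven over the members. The pooled SD within groups had a median of 0.246 over the tested collagens and 0.236 over all genes. It was highest for Col1a1 at 0.648, above 99.01% of genes tested, and came to 0.620 for Col23a1, 0.608 for Col6a2, 0.590 for Col1a2, 0.576 for Col5a2 and 0.567 for Col7a1. Col6a2 and Col5a2 split by replicate number. Col6a2 stood at log2 11.29, 10.68, 9.64 and 9.68 in cHet uterus, 10.43, 10.28, 9.32 and 9.91 in cHet vagina, and 10.63, 10.50, 9.84 and 9.69 in cKO vagina, with replicates 1 and 2 above replicates 3 and 4 in each group. Its difference between cHet vagina and cHet uterus was -0.63 in replicates 1 and 2 and -0.05 in replicates 3 and 4. Col5a2 ran the other way, at 6.87, 6.47, 6.91 and 7.18, then 6.21, 5.85, 7.29 and 7.14, then 6.99, 6.27, 7.76 and 7.43, and its difference was -0.64 in replicates 1 and 2 and 0.17 in replicates 3 and 4. The labels do not say what replicates of a number share.

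Genes that make, join, organise, bind or cut collagen were read from 6 lists of 78 tested genes, of which 13 were called higher and 11 lower in cHet vagina than in cHet uterus, or 24 in all, where the shares over all genes tested were 9.35% higher, 9.06% lower and 18.4% in all. Among 20 folding and modifying enzymes, P4ha2, a prolyl hydroxylase subunit, was 0.94 higher on the log2 scale and the ion channel Tmem38b 0.65 higher, while the lysyl hydroxylase Plod2 fell by 0.59. Among 7 genes of processing and cross-linking, the lysyl oxidase Lox (0.90) and the proteinase enhancer Pcolce2 (1.20) were higher, and Tgm2 (-1.77) and Pcolce (-0.65) were lower. Pcolce2, related to Pcolce, averaged log2 4.31 in cHet uterus, near the level without signal, and 5.51 in cHet vagina. It may have passed the filter on dim probes only through vaginal pools, so its call is no separate support for a difference.

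Fibril-associated proteins were called higher for 4 and lower for 2 of 22. Dpt, whose dermatopontin binds decorin and fibrils, was 2.49 higher and Thbs2 1.81 higher on the log2 scale, and Fn1, the fibronectin gene, fell by 1.45. Of 14 basement membrane partners, the laminin chains Lamc1 (0.80) and Lamb1 (0.73) were among the 3 called higher, and Frem1 (-1.10) was the lower of the 2 called lower. Frem1 averaged log2 4.27 in cHet vagina, near the level without signal. It may have passed the filter only through uterine pools, so its call is no separate support. Of 5 receptors tested, 1 was called, the collagen-binding integrin chain Itga11 at -1.02. Of 10 degrading enzymes and their inhibitors, Ctsk, a protease of collagen, was 1.20 higher on that scale and the gelatinase Mmp2 and the inhibitor Reck were lower (-1.08 and -1.22), for 2 called higher and 3 lower. Fibroblast and mesenchyme markers were called higher for 4 and lower for 3 of 10, with sums of 10000 to 11800 in cHet uterus and 11600 to 16300 in cHet vagina.

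**Figure D5:**
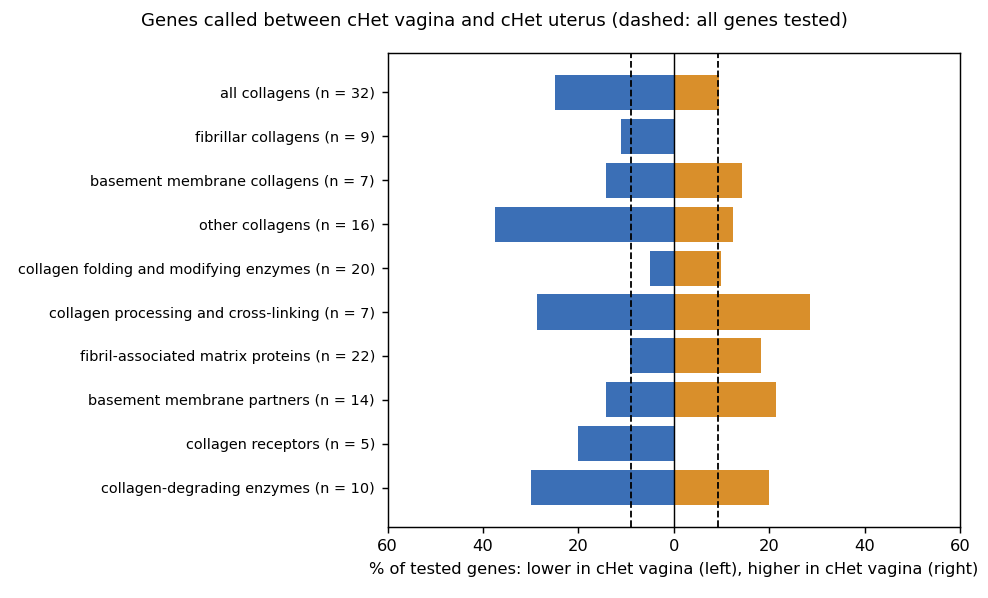
Share of tested genes called lower (left, blue) and higher (right, orange) in cHet vagina than in cHet uterus, in percent, for the collagens, their classes and the 6 lists of related genes, with the number tested in brackets and dashed lines at the shares of all genes tested. The other collagens and the degrading enzymes reach furthest left and the processing genes furthest right.

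Between cKO and cHet vagina 0 of these 78 genes were called by limma, at a lowest adjusted p of 0.249, where 0.381% of all genes were. At an unadjusted p under 0.05 there were 3 of the 78, against 7.07% of all genes. Epithelial markers were lower in sum, at 9430 to 14600 in cKO vagina against 15100 to 25900 in cHet vagina, a sum in which bright genes weigh most. Of the 14 tested, 1 was called, Krt17 at -1.80, and 13 were not, where 0.381% of all genes were called. At an unadjusted p under 0.05 there were 6 of the 14, against 7.07% of all genes. The median difference of the 14 was -0.27. Fibroblast and mesenchyme markers summed to 12500 to 14600 in cKO vagina, inside the range of cHet vagina.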

How the data were processed

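RNA was extracted with Trizol and column clean-up and labelled as biotinylated cRNA, per the labels' protocols. The deposited table holds 1 linear intensity for each probe on each array. Its column means range from 248.3 to 252.2, which shows that the authors scaled the arrays alike; how they did so is not given here. A further 24 columns of per-sample values have names that match no label and were not used, so no detection p-value entered the background. For each array, background was set at the mode of the intensities, with its SD from values under that mode. The normexp model (limma 3.58.1, R 4.3.3) used these to correct the intensities, and 16 was added before quantile normalization and log2. The constant understates differences of dim probes. A probe counted as above background past the level under which 99% of background values lie, and was kept if this held on at least 4 of 12 arrays. Precision is limited by the number of arrays.

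By the platform annotation 34885 probes have 1 symbol, 18 have several and 10378 have none; 17883 with 1 symbol were kept. Each gene was read from its brightest kept probe. One mean per group was fitted over the 12 arrays (limma, lmFit with eBayes, two-sided), with Benjamini-Hochberg adjustment over 11274 genes, and the fit was tested on simulated data. The members, their classes and the other lists were chosen with earlier results of these data known. Pool values are given for members called in a comparison, up to 8 per direction, and for Col1a1, Col2a1, Col3a1 and Col4a1, and of each other list up to 3 called members were named; Col6a2 and Col5a2 were added after their values were seen. Sums over lists are of corrected linear intensity without the constant. Promoters were matched by symbol to RefSeq tables.

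Replicate numbers run from 1 to 4 in each group. Deviations of the pools from their group means were correlated over genes. Between cHet vagina and cHet uterus, pools with the same number gave 0.117 to 0.429, above 0.1 in all 4 pairs. Yet cHet vagina replicate 1 correlated best with cHet uterus replicate 2, and cHet vagina replicate 2 with cHet uterus replicate 1. Replicates 3 and 4 of cHet vagina correlated best with their own numbers. The best match thus stayed within replicates 1 and 2 or within replicates 3 and 4. Whether single numbers pair these samples is not settled, and the labels give no meaning to a number. The reported fit has no block, and values with a replicate block stand beside the results they change. In all, 26 alternatives per comparison were run, covering background, constant, normalization, filter, probe choice, samples in the fit, blocks and each pool left out.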

Additional observations from a re-analysis of the deposited data

Results flagged for a closer look

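Within each group the highest and lowest of the 4 pools were set against the others for every tested collagen, 96 groups in all, and in 5 of them 1 pool stood farther from the rest than Dixon's critical ratio; chance alone flags about 1 in 20 groups. Replicate 2 of cKO vagina was low for Col24a1, at log2 4.89 against 5.29 to 5.36 in the other pools, and for Col4a5, at 8.001 against 8.54 to 8.59. Replicate 4 of cKO vagina was low for Col14a1, at 7.85 against 8.19 to 8.25. Replicate 2 of cHet uterus was high for Col18a1, at 10.31 against 9.77 to 9.85. Replicate 3 of cHet uterus was low for Col25a1, at 4.16 against 4.41 to 4.46, all close to background. No pool was far off for more than 2 of the collagens.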

How the results depend on the processing

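Between cKO and cHet vagina 0 collagens were called in each of the 26 alternatives, the replicate block included, and 19 of the 32 uncalled differences changed sign in at least 1. Between cHet vagina and cHet uterus, 7 of the 11 called members kept their calls. These were Col8a2, Col9a2, Col26a1, Col14a1, Col15a1 and Col23a1, with Col6a5 wherever it was tested. Col6a5 passed the filter only through its uterine pools, so its kept calls are no separate support. Col4a5, Col6a4, Col22a1 and Col27a1 each lost their calls in some alternatives. Members higher in cHet vagina numbered 7 with the replicate block, 6 with replicates 1 and 2 against 3 and 4 as a block, and 6 in replicates 3 and 4 alone, beside 3 as reported. Members lower there numbered 5 without background correction, 5 without normalization, 5 with probes above background on all 12 arrays and 4 in replicates 1 and 2 alone, beside 8. With replicates 1 and 2 against 3 and 4 as a block, Col7a1 and Col16a1 joined the lower members. In replicates 1 and 2 alone 7 were called in all. With 1 pool left out, between 3 and 5 were higher, the 5 coming without cHet uterus replicate 1, when Col1a1 and Col1a2 joined; 6 to 8 were lower and 9 to 13 called in all. Between cKO vagina and cHet uterus 9 were called in replicates 1 and 2 alone, 5 of them lower, beside 15 and 9, and 11 to 15 with 1 pool left out. The causes were not tested. No called collagen changed sign.

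The replicate block changed no call other than those of Col1a1, Col1a2, Col2a1, Col24a1 and Col16a1 between cHet vagina and cHet uterus, and left 15 called between cKO vagina and cHet uterus. Same-numbered pools correlated at 0.0659 to 0.49 between the vaginal groups, over 0.1 in 3 of 4 pairs. Between cKO vagina and cHet uterus they correlated at 0.0729 to 0.309, again over 0.1 in 3 of 4 pairs. In each comparison, that of cHet vagina and cHet uterus included, 2 of 4 pools correlated best with their own number. Pairing by single number is thus not settled in any of them. In all of them the best match of replicates 1 and 2 was a replicate 1 or 2. That of replicates 3 and 4 was a replicate 3 or 4. The reported fit does not take this split into account. Median scaling moved the median of all genes to 0.0865 and no normalization to 0.114 between the genotypes, and to 0.128 and 0.168 between cKO vagina and cHet uterus, and differences on those scales are relative to that shift. The number of pools limits the precision, and the added constant compresses differences of dim members such as Col2a1 and Col22a1.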
